A study of Arabidopsis thaliana with 12 samples.

Results

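The chloroplast-encoded genes are the 88 of 27655 genes in the deposited expression table whose Arabidopsis identifier begins with ATCG, the prefix of the plastid genome. The rule used the identifier alone and no measured value. Main inflorescence stems of 2-month-old Arabidopsis thaliana plants were profiled by messenger RNA sequencing in 4 genotypes with 3 biological replicates each. The tested genotypes were ccrfer, the double mutant ccr1-3/fer4; fer, labelled as a fer4 mutant, which lacks the cell wall receptor kinase FERONIA (gene FER); and ccr, the mutant ccr1-3, which is defective in cinnamoyl-CoA reductase, a lignin enzyme encoded by CCR1. They were set against WT, the wild type Col-0. The study was designed to ask which of the gene activations seen in ccr1-3 depend on FERONIA. The genotype entries of ccrfer replicates 2 and 3 read fer5 and fer6 in place of fer4, and the titles were followed.

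The plastid genome is a small circular genome of bacterial origin that is present in many copies in each plastid. It codes for core subunits of both photosystems, of the cytochrome b6f complex, of the ATP synthase and of an NADH dehydrogenase-like complex, for the large subunit of Rubisco, for part of the plastid ribosome and for the plastid's own bacterial-type RNA polymerase. The remaining subunits of these complexes, the sigma factors that direct the polymerase and the proteins that cut, stabilise and degrade plastid transcripts are made from nuclear genes and imported. Green stems carry chloroplasts in their outer layers. Plastid transcripts mostly lack the long poly(A) tail of nuclear messengers, and short tails in plastids mark RNA for decay, so a kit made for poly(A) messengers reads them only in part. In RNA of whole stems, fewer plastids, fewer cells that hold them and less RNA per plastid cannot be told apart.

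FER (AT3G51550) was at 0.849 ± 0.668 FPKM in ccrfer, 84.1 ± 1.02 in the libraries labelled fer, 98.2 ± 1.96 in ccr and 84.1 ± 1.58 in WT (SD, n = 3 each; FPKM is fragments scaled to transcript length and to library depth). The libraries labelled fer thus held FER at the WT level, and they are called by their label throughout. CCR1 (AT1G15950) was at 206 ± 26.0 FPKM in ccrfer, 319 ± 30.2 in labelled fer, 199 ± 18.3 in ccr and 236 ± 17.3 in WT. The secondary wall cellulose synthase genes, which mark lignifying stem tissue, were near the detection limit in WT: IRX3 (AT5G17420) was at 148 ± 6.87 FPKM in ccrfer, 49.2 ± 2.74 in labelled fer, 86.9 ± 3.04 in ccr and 1.44 ± 0.331 in WT. CESA4 (AT5G44030) was at 2.25 ± 0.400 FPKM in WT and IRX1 (AT4G18780) at 0.871 ± 0.0412. Every comparison with WT below is therefore one with stems in which these markers are nearly absent, and their part in the plastid results was not tested. Libraries held 56884740 to 227159338 reads, of which 91.4% to 94.2% were mapped, and the median FPKM of the 18428 tested genes was 11.6 to 11.9 in each library.

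Of the 88 plastid genes, 67 could be tested, 5 were set apart because they were listed at 0 in whole genotypes and above 100 FPKM elsewhere, 12 stayed below the filter of 1 FPKM in at least 3 libraries, and 4 were listed at 0 in all 12 libraries. The reference record of the plastid chromosome holds 85 protein-coding entries under 78 symbols, but pairs none of them with an ATCG identifier. Few plastid genes could be named, through nuclear relatives whose reference notes quote the identifier and whose sequence matched 1 plastid gene. The 6 described here were ATCG00420 (ndhJ) and ATCG00430 (ndhK), subunits of the NADH dehydrogenase-like complex; ATCG00530 (cemA), an envelope membrane protein; ATCG00660 (rpl20) and ATCG01310 (rpl2), proteins of the plastid ribosome; and ATCG00670 (clpP), the proteolytic subunit of the Clp protease. The note for ATCG00430 calls it photosystem II reaction center protein G, an older name, and the match was to ndhK. The other genes are given by identifier and without a role.

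The 5 genes set apart were at 3589 FPKM or more in every library where they were detected, and their zeros fell on all 3 libraries of a genotype at once. ATCG00490 was at 25828, 23189 and 23235 FPKM in labelled fer and was listed at 0 in every library of ccrfer, ccr and WT. ATCG00270 was at 4814, 3993 and 3768 FPKM in ccrfer and at 4639, 5211 and 4766 in labelled fer, and was listed at 0 in ccr and WT. ATCG00280 was at 5964, 6083 and 5693 FPKM in ccrfer and at 7473, 7197 and 6772 in labelled fer, and was likewise listed at 0 in ccr and WT. ATCG00340 and ATCG00350 were instead listed at 0 in ccr only. ATCG00340 was at 5127, 4466 and 5623 FPKM in ccrfer, 3951, 4429 and 4338 in labelled fer, and 4275, 4886 and 5188 in WT. ATCG00350 was at 4360.4, 3852 and 4160.5 FPKM in ccrfer, 3589, 3848 and 3699 in labelled fer, and 3860.2, 4301 and 4540.3 in WT. ATCG00330, whose identifier precedes that of ATCG00340, was between 5061.9 and 7419 FPKM in every library, ccr included. ATCG00480, whose identifier precedes that of ATCG00490, was between 1249 and 1643 FPKM in every library. A zero of this kind can be a failed estimate, so no fold change against a genotype at 0 is given.

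**Figure D1:**
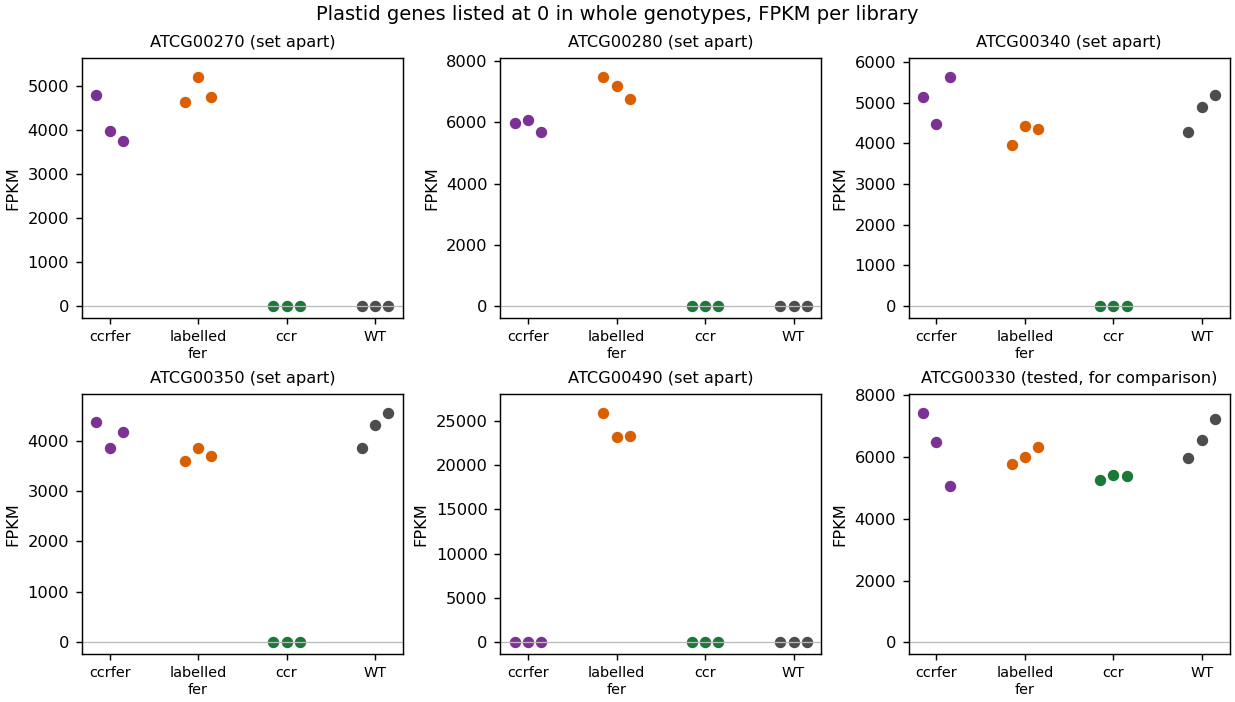
FPKM of the 5 plastid genes set apart and, for comparison, of ATCG00330, in each of 12 libraries; points are libraries, grouped by genotype, and the vertical axes are linear. The zeros fill whole genotypes: ccr in 5 panels, WT in 3 and ccrfer in 1, while ATCG00330 lies between 5061.9 and 7419 FPKM throughout.

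Between genotypes where the genes set apart were listed, differences were small. The limma fit estimated each gene's spread from all genotypes together, those with zeros included. Zeros that fill a genotype add no spread, so the SE and adjusted p of these genes can be too small. A fit without those genotypes was not among the alternatives, so whether the calls below hold was not tested. ATCG00280 was lower in ccrfer than in labelled fer by limma, with a log2(FPKM + 1) difference of -0.27 (SE 0.050, adjusted p = 0.00105) and no overlap of libraries. ATCG00270 had a difference of -0.22 (adjusted p = 0.0447), with overlapping libraries. ATCG00340 was higher in ccrfer than in labelled fer (0.25, adjusted p = 0.0479), and ATCG00350 differed by 0.15 there (adjusted p = 0.112). Against WT, ATCG00350 was lower in labelled fer (-0.19, SE 0.0708, adjusted p = 0.0437), while ATCG00340 differed by -0.17 (adjusted p = 0.149). In ccrfer against WT the differences were 0.08 for ATCG00340 (adjusted p = 0.497) and -0.04 for ATCG00350 (adjusted p = 0.703), neither past the threshold of 0.05.

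Single libraries also held zeros. ATCG00210 was at 22579 and 12414 FPKM in ccrfer 1 and 2 and was listed at 0 in ccrfer 3. It was at 12017, 29426 and 10648 FPKM in labelled fer, 3960.2, 11638 and 8022 in ccr, and 4582, 8176 and 10112 in WT. ATCG00590 was listed at 0 in ccr 1 and WT 2, with 4969, 250.1 and 5844 FPKM in ccrfer, 509, 3082 and 7236 in labelled fer, 1249 and 169 in ccr 2 and 3, and 115 and 2253 in WT 1 and 3. These 3 zeros stand in the fits below, where they widen the error of both genes, and neither was called in any comparison. In ccrfer 3, ATCG00065, ATCG00510 and ATCG00600 carried the identical value 11752 FPKM, the only such tie among plastid genes.

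The 4 genes listed at 0 throughout were ATCG00020, ATCG00840, ATCG00870 and ATCG01270. Such zeros can also be failed estimates, so they are not read as absence of the transcript. The 12 genes below the filter were ATCG00830, ATCG00860, ATCG00890, ATCG00900, ATCG00905, ATCG01000, ATCG01230, ATCG01240, ATCG01250, ATCG01280, ATCG01300 and rpl2 (ATCG01310). The highest value among them was 5.76 FPKM for ATCG01230 in labelled fer 2. The named ribosomal protein gene rpl2 was at 0, 0.333 and 0 FPKM in ccrfer, 0.368, 0 and 0 in labelled fer, 0.126, 0.190 and 0.0719 in ccr, and 0.312, 0.156 and 0.116 in WT. The plastid record lists rpl2 at 2 places, as it does ndhB, rpl23, rps12, rps7, ycf1 and ycf2, and the files do not say how reads that match both copies were counted.

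The 67 tested plastid genes were abundant in every library. Apart from the 3 zeros above, the lowest value was 6.53 FPKM, for ATCG01130 in ccr 1. Their median was 861, 598 and 968 FPKM in ccrfer, 776, 1354 and 1110.1 in labelled fer, 360.1, 534 and 425 in ccr, and 405, 517 and 736 in WT. The medians of labelled fer exceeded every WT median, whereas those of ccr and WT overlapped. By the mean over all libraries the most abundant were ATCG00690, ATCG00700 and ATCG00065. ATCG00690 was at 28327, 7931 and 151493 FPKM in ccrfer, 6965, 126085 and 36888 in labelled fer, 3719.7, 5875 and 4254 in ccr, and 4705, 5539.7 and 30067 in WT. It made up 3.97% (ccr 3) to 48.5% (ccrfer 3) of the summed FPKM of the 67 genes, so the sum is not used below. ATCG00700 was at 21283, 17590.0 and 15771 FPKM in ccrfer, 17792, 28028 and 17217 in labelled fer, 13301, 16431 and 19274 in ccr, and 19115, 22247 and 21310.1 in WT, and no genotype stood apart. ATCG00065 was at 14124, 17361 and 11752 FPKM in ccrfer, 21869, 21068 and 7770.5 in labelled fer, 10931, 12822 and 10175 in ccr, and 7241, 10923 and 10941 in WT.

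**Figure D2:**
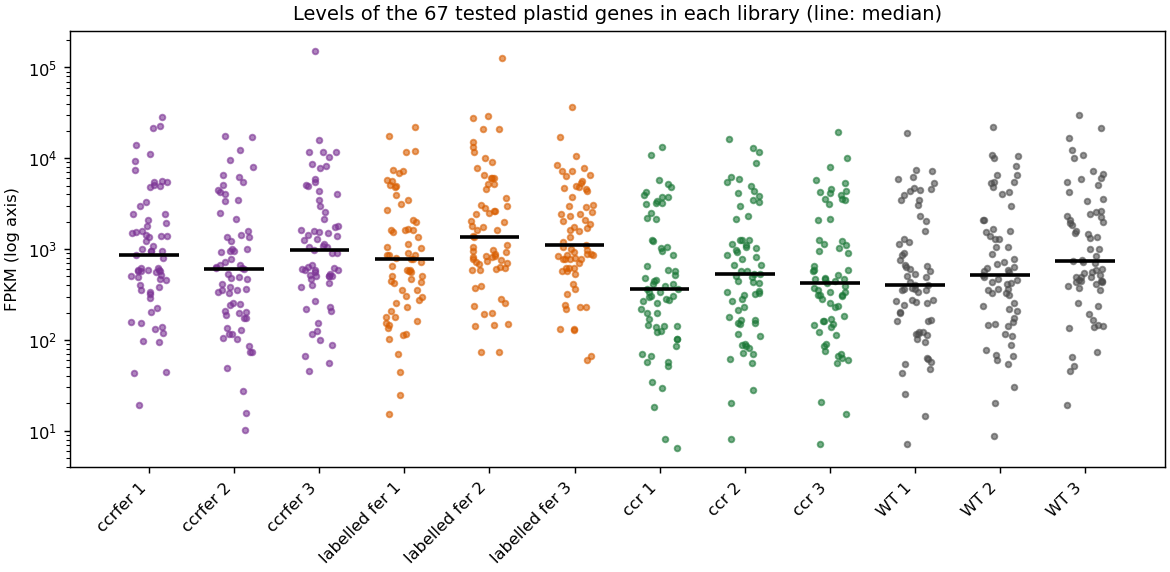
FPKM (log axis) of the 67 tested plastid genes in each library; each point is a gene and the line is the median over genes, and the 3 values at 0 are not drawn. Medians are 776 to 1354 FPKM in labelled fer and 360.1 to 534 in ccr, and ccrfer 3 and labelled fer 2 each hold 1 gene, ATCG00690, far above the rest, at 151493 and 126085 FPKM.

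The genotypes ranked alike for most genes. The mean FPKM was highest in labelled fer for 59 of the 67 genes, in ccrfer for 4, in WT for 3 and in ccr for 1. The lowest mean was that of ccr for 56 genes, of WT for 8 and of ccrfer for 3, and of labelled fer for 0.

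Replicates of a genotype differed in level for many plastid genes together. WT 3 was the highest WT library for 57 of the 67 genes, labelled fer 2 the highest of its genotype for 40 and ccrfer 3 for 43. The lowest library of a genotype was WT 1 for 59 genes, ccr 1 for 54, labelled fer 1 for 52 and ccrfer 2 for 50. Counted against each gene's mean over all libraries, 51, 11 and 49 genes lay above it in ccrfer 1 to 3, 44, 65 and 61 in labelled fer, 1, 7 and 3 in ccr, and 7, 18 and 48 in WT. The highest and lowest library of a genotype differed 2-fold or more for 29 genes in ccrfer, 31 in labelled fer, 8 in ccr and 25 in WT, not counting genes with a library at 0 (ATCG00210 in ccrfer and ATCG00590 in ccr and WT), for which no ratio was taken. The median of that ratio was 1.72 in ccrfer, 1.55 in labelled fer, 1.19 in ccr and 1.56 in WT, so ccr was the most even genotype.

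The genes that varied between replicates were largely shared between WT, labelled fer and ccrfer, and for ccr no overlap was taken. Of the 67 genes, 26 (38.8%) were at least 2-fold higher in WT 3 than in WT 1. The same ratio was reached by 27 genes in labelled fer 2 over labelled fer 1 and by 23 in ccrfer 3 over ccrfer 2. All 26 of the first set were among the 27 (100% of the one, 96.3% of the other), and 21 were among the 23 (80.8% and 91.3%). The overlap was smaller for ccrfer 1 over ccrfer 2, where 15 genes reached the ratio and 14 were shared (53.8% and 93.3%). In all, 12 genes reached 2-fold in each of 5 such ratios, which also took in labelled fer 3 over labelled fer 1 and ccrfer 1 over ccrfer 2; they were ATCG00050, ATCG00300, cemA, ATCG00590, ATCG00640, ATCG00690, ATCG00800, ATCG01020, ATCG01050, ATCG01070, ATCG01080 and ATCG01090. ATCG01070, for example, was at 574, 104 and 499.7 FPKM in ccrfer, 114, 1057 and 994 in labelled fer, 57.0, 89.1 and 63.8 in ccr, and 63.4, 77.4 and 599 in WT. ATCG01020 ran the same way, with 941, 115 and 1073 FPKM in ccrfer, 155, 2027 and 1734 in labelled fer, 29.4, 88.5 and 60.3 in ccr, and 62.3, 68.3 and 758 in WT. The same shares were taken over all tested genes that were above 0 in the second library of each ratio. They were 1.60% of 18284 genes for WT 3 over WT 1 and 3.17% of 18353 for labelled fer 2 over labelled fer 1. For ccrfer 3 over ccrfer 2 the share was 4.41% of 18354 genes, and for ccrfer 1 over ccrfer 2 it was 1.87% of 18354. These ratios share libraries within a genotype and were chosen after the values were seen, so they are a description without a test.

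AT2G01021, a nuclear row with very high FPKM, moved with part of this pattern. It was at 6128100, 113705 and 45932600 FPKM in ccrfer, 1429630, 15147300 and 8613970 in labelled fer, 59132.6, 410312 and 42536.3 in ccr, and 182868, 332845 and 312368 in WT. Its order over replicates was that of the plastid medians in ccrfer and in labelled fer but not in ccr or WT, and WT 3 did not stand above WT 2 in it. Its part in the plastid results was not tested beyond the fit with its level as a covariate, whose counts stand with the other alternatives. All labelled fer libraries lay above all ccr and WT libraries in AT2G01021, so this covariate is partly confounded with genotype. That fit can therefore also remove differences between genotypes, and its lower counts cannot tell the 2 apart.

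**Figure D3:**
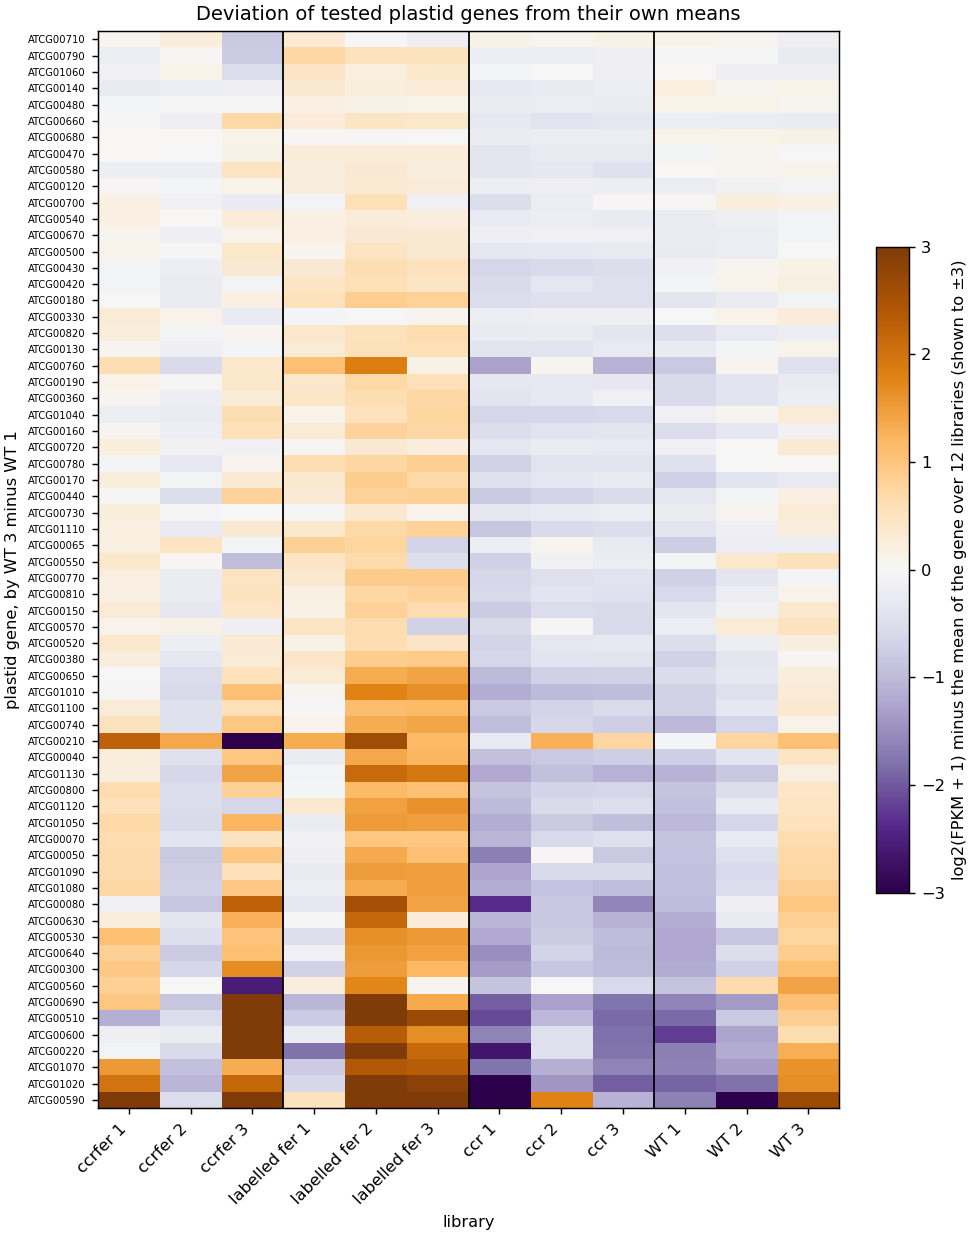
Deviation of tested plastid genes (rows, ordered by WT 3 minus WT 1; 1 gene is not drawn) from its own mean over the 12 libraries (columns), in log2(FPKM + 1), with the colour scale ending at ±3. Many but not all genes at the bottom are high together in WT 3, labelled fer 2 and 3, and ccrfer 1 and 3. Exceptions include ATCG00560, at 1058 FPKM in ccrfer 3, and ATCG00510, at 614 FPKM in ccrfer 1. The ccr columns are below the mean for nearly all genes.

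The 5 tested genes with a name show both patterns. Among the NADH dehydrogenase-like subunits, ndhJ was at 404, 364 and 402 FPKM in ccrfer, 584, 639.9 and 580.1 in labelled fer, 285, 333 and 311 in ccr, and 405, 460.2 and 488 in WT. Its levels thus ordered as labelled fer, WT, ccrfer and ccr, and the libraries of ccrfer and WT came within 1 FPKM of each other. Its partner ndhK was at 378, 355 and 511 FPKM in ccrfer, 512, 622 and 580.3 in labelled fer, 257, 271 and 283 in ccr, and 373, 420.2 and 448 in WT, with ccr below and labelled fer above all libraries of the others, by less than 1 FPKM against ccrfer 3. The ribosomal protein gene rpl20 was at 584, 532 and 968 FPKM in ccrfer, 719, 821 and 786 in labelled fer, 486, 445 and 469 in ccr, and 525, 517 and 514 in WT, with ccrfer 3 apart from its genotype. The protease subunit clpP was at 2457, 2151 and 2566 FPKM in ccrfer, 2697, 2989 and 3018 in labelled fer, 2137, 2168 and 2159 in ccr, and 2018, 2076 and 2295 in WT. For clpP ccr, WT and ccrfer overlapped and labelled fer lay above them. The envelope protein gene cemA belonged to the variable genes, with 617, 208 and 588 FPKM in ccrfer, 207, 888 and 839 in labelled fer, 124, 167 and 146 in ccr, and 122, 158 and 488 in WT. Only ccr was even for cemA, and its differences were called in no comparison.

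**Figure D4:**
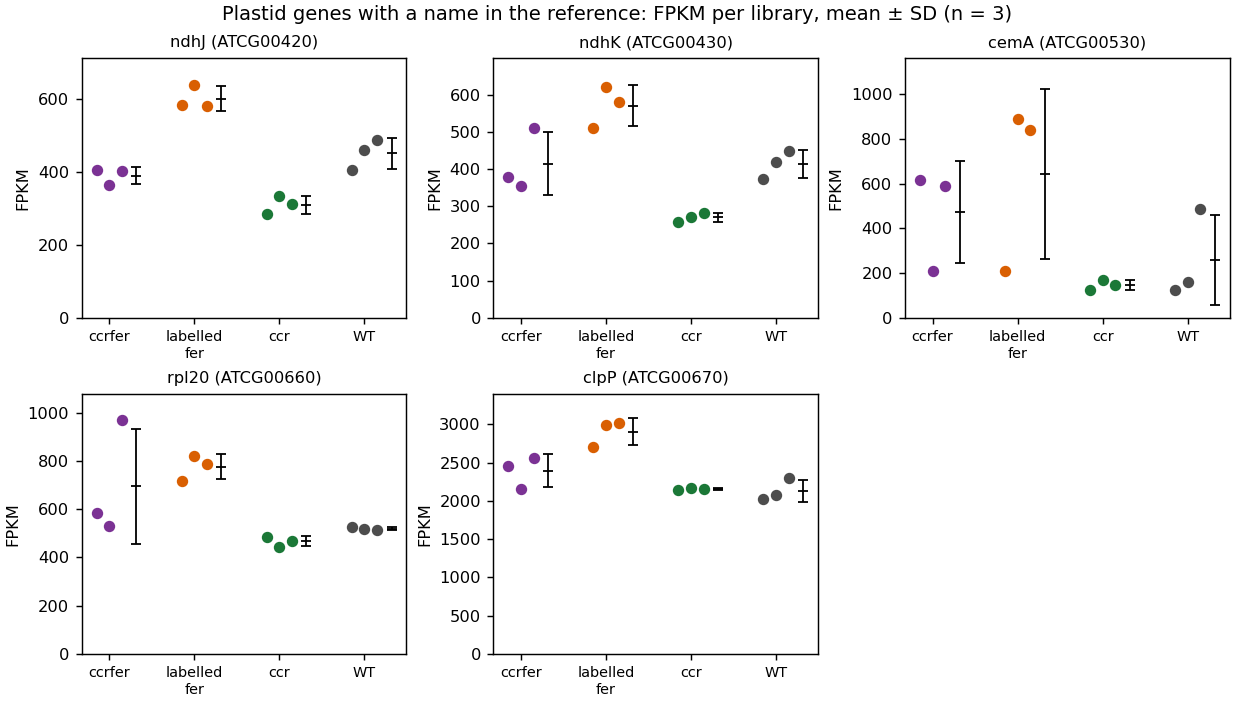
FPKM of the 5 tested plastid genes with a name, per library (points) with the mean ± SD of 3 libraries beside them, on linear axes from 0. Labelled fer lies highest for ndhJ and clpP, ccr lowest for ndhJ and ndhK, and cemA spans 207 to 888 FPKM within labelled fer.

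In ccr against WT, plastid genes were slightly lower and few passed the test. Of the 67 genes, 8 were lower and 0 higher (limma, adjusted p under 0.05 over all 18428 tested genes); over all tested genes 19.8% were called lower and 24% higher, so the members' 11.9% lower lies under the background. At an unadjusted p under 0.05, 14 were lower and 0 higher. Of the 67 differences 58 were negative, the median was -0.37 (-0.17 without WT 3) against 0.03 for all tested genes, and 21 genes had all ccr libraries below all WT libraries, where 32.1% of all genes did. ATCG01040 was at 85.5, 86.2 and 89.1 FPKM in the ccr libraries, against 123, 142 and 165 in WT (log2 difference -0.70, SE 0.212, adjusted p = 0.0181). ATCG01110 was at 67.4, 82.2 and 85.2 FPKM in the ccr libraries, against 94.9, 109.9 and 143 in WT (-0.55, SE 0.178, adjusted p = 0.0258). Both complex subunits with a name fell: ndhK by 0.61 on the log2 scale (SE 0.126, adjusted p = 0.00199) and ndhJ by 0.54 (SE 0.0849, adjusted p = 0.000274). ATCG00140 was at 3193, 3300.1 and 3459.5 FPKM in the ccr libraries, against 4468, 4094 and 4233 in WT (-0.36, SE 0.106, adjusted p = 0.0157). The others called lower were ATCG00680 (-0.32, adjusted p = 0.0416), ATCG00480 (-0.32, adjusted p = 0.00205) and ATCG00470 (-0.29, adjusted p = 0.00789). The count was 5 without WT 3 and 4 without ccr 1. The ndhJ and ndhK calls held under every alternative run, with adjusted p up to 0.00198 and 0.0112, while ATCG01040, ATCG01110 and ATCG00140 were lost without single libraries, ccr 1 among them (adjusted p = 0.0511, 0.103 and 0.0601 without it; up to 0.0735, 0.113 and 0.088 over all alternatives).

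In labelled fer against WT, more plastid genes were called higher than in any other comparison here. Of the 67 genes 32 rose and 0 fell, which is 47.8% higher, where 28.4% of all tested genes were called higher and 23.2% lower. At an unadjusted p under 0.05, 37 were higher and 0 lower. The median difference was 0.90 against 0.04 for all tested genes. With AT2G01021 as a covariate, 19 genes rose and the median was 0.27. Without the covariate, 62 of 67 differences were positive, and 29 genes did not overlap upward, where 34.5% of all genes did. ATCG00760 was at 2085, 3612 and 1110.1 FPKM in labelled fer, against 575, 1048 and 736 in WT (1.41, SE 0.466, adjusted p = 0.0239). ATCG00650 was at 359, 734 and 781 FPKM in labelled fer, against 201, 235 and 351 in WT (1.21, SE 0.320, adjusted p = 0.00749; 0.60, adjusted p = 0.0964 with the covariate, the highest over the alternatives). The spread of both was wide, and labelled fer was at its lowest only just above WT for both. Tighter were ATCG00170, at 102, 146 and 129 FPKM in labelled fer, against 47.4, 60.1 and 65.6 in WT (1.1, SE 0.152, adjusted p = 6.82e-05), and ATCG00770, at 583, 846 and 853 FPKM in labelled fer, against 277, 350.3 and 436 in WT (1.1, SE 0.204, adjusted p = 0.000702). ATCG00380 was at 561, 765 and 799 FPKM in labelled fer, against 259, 327 and 430.2 in WT (1.08, SE 0.203, adjusted p = 0.000784). Of the 5 tested genes with a name, rpl20 (0.58, adjusted p = 0.0134), ndhK (0.46, adjusted p = 0.00876), clpP (0.45, adjusted p = 0.00286) and ndhJ (0.42, adjusted p = 0.00138) rose, and cemA had the largest difference of these with the widest spread (1.34, adjusted p = 0.0937). The ATCG00760 call was lost without WT 1, WT 3, labelled fer 1 or labelled fer 2 (adjusted p = 0.0869, 0.0601, 0.0573 and 0.105) and with AT2G01021 as a covariate (adjusted p = 0.257, the highest over the alternatives). Since the libraries labelled fer held FER at the WT level, the direction is that of these libraries, not of a FER mutant.

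In ccrfer against ccr, which both carry ccr1-3, plastid genes were higher in the double mutant, and the calls were near the threshold. Of the 67 genes 16 (23.9%) rose and 0 fell, where 10.4% of all tested genes were called higher and 10.1% lower. At an unadjusted p under 0.05, 45 were higher and 0 lower. The median difference was 0.59 against 0.00 for all tested genes, 62 of 67 were positive, and 44 genes had all ccrfer libraries above all ccr libraries, where 19.8% of all genes did. ATCG00150 was at 949.8, 619 and 1049 FPKM in ccrfer, against 447, 538 and 517 in ccr (0.77, SE 0.230, adjusted p = 0.0343). ATCG01110 was at 140.3, 103 and 156 FPKM in ccrfer, against 67.4, 82.2 and 85.2 in ccr (0.74, SE 0.178, adjusted p = 0.0111). ATCG01040 was at 119, 115 and 209 FPKM in ccrfer, against 85.5, 86.2 and 89.1 in ccr (0.70, SE 0.212, adjusted p = 0.0361). For these the groups did not overlap, although ccrfer 2 came close to ccr. ATCG00770 (0.65, SE 0.204, adjusted p = 0.0432) and ATCG00520 (0.61, SE 0.200, adjusted p = 0.0494) were called by a narrow margin. Among the genes with a name ndhK (0.60, adjusted p = 0.00525), rpl20 (0.52, adjusted p = 0.0491) and ndhJ (0.33, adjusted p = 0.0156) rose, whereas clpP (0.15, adjusted p = 0.347) and cemA (1.54, adjusted p = 0.108) did not pass. The count of 16 was 5 without ccr 1, 7 without ccr 2, 7 without ccr 3, 10 without ccrfer 1, 37 without ccrfer 2 and 10 without ccrfer 3, and 3 with the AT2G01021 covariate, where the median was 0.21. The 5 genes with the largest differences among those called with no overlap of libraries each lost the call without ccr 1 (adjusted p = 0.0548 for ATCG01110 and 0.101 to 0.182 for the others) and with the AT2G01021 covariate (0.209 to 0.599, the highest over the alternatives).

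In ccrfer against labelled fer, plastid genes were lower in ccrfer. Of the 67 genes 22 (32.8%) fell and 0 rose, where 21.3% of all tested genes were called lower and 19.3% higher. At an unadjusted p under 0.05, 23 were lower and 0 higher. The median difference was -0.47 against -0.01 for all tested genes, 63 of 67 were negative, and 18 genes did not overlap downward, where 22.3% of all genes did. ATCG00790 was at 569.7, 666 and 379.8 FPKM in ccrfer, against 1067, 942 and 927 in labelled fer (-0.90, SE 0.160, adjusted p = 0.000862). ATCG00780 was at 563, 476 and 619.8 FPKM in ccrfer, against 899, 978 and 1057 in labelled fer (-0.83, SE 0.137, adjusted p = 0.000524). ATCG00180 was at 204, 176 and 233 FPKM in ccrfer, against 298, 375 and 362 in labelled fer (-0.75, SE 0.110, adjusted p = 0.000206). The groups were well apart for all 3. ATCG00380 was at 487, 337 and 511 FPKM in ccrfer, against 561, 765 and 799 in labelled fer (-0.68, SE 0.203, adjusted p = 0.0192), and that call was lost without labelled fer 2, labelled fer 3 or ccrfer 2 (adjusted p = 0.0638, 0.0724 and 0.0716; lowest over the alternatives 0.00672). Among the genes with a name ndhJ (-0.62, SE 0.0849, adjusted p = 0.000118), ndhK (-0.47, adjusted p = 0.0105) and clpP (-0.28, adjusted p = 0.0439) fell, and rpl20 (-0.21, adjusted p = 0.356) and cemA (-0.34, adjusted p = 0.696) did not pass. The count of 22 was 11 without labelled fer 2, 12 without labelled fer 3 and 12 without ccrfer 2, and the median was -0.26 without labelled fer 2 and -0.21 without ccrfer 2.

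In ccrfer against WT, few plastid genes were called. Of the 67 genes 7 (10.4%) rose and 1 (1.49%) fell, where 24.9% of all tested genes were called higher and 22.8% lower. The median difference was 0.36 against 0.00 for all tested genes, but it was 0.14 without WT 1, 0.15 without ccrfer 3, 0.20 without the filter on low values and -0.06 with the AT2G01021 covariate, so its sign turned. ATCG00170 was at 93.9, 74.0 and 98.7 FPKM in ccrfer, against 47.4, 60.1 and 65.6 in WT (0.62, SE 0.152, adjusted p = 0.00526). ATCG00190 was at 96.9, 85.4 and 117 FPKM in ccrfer, against 57.3, 66.8 and 74.2 in WT (0.58, SE 0.119, adjusted p = 0.00155). ATCG00820 was at 588, 469 and 516 FPKM in ccrfer, against 357, 415 and 443 in WT (0.37, SE 0.103, adjusted p = 0.0108). The ccrfer libraries lay above the WT libraries for all 3, and the ATCG00820 call was lost without WT 1 (adjusted p = 0.0525) and with the AT2G01021 covariate (0.0577, the highest over the alternatives). ATCG00540 was at 861, 772 and 916 FPKM in ccrfer, against 649.8, 684 and 725 in WT (0.31, SE 0.0748, adjusted p = 0.00506). ATCG00160 (0.48) and ATCG00360 (0.45) were also called higher, but with overlapping libraries, since ccrfer 2 lay below WT 3 for both. The 1 gene called lower was ATCG00140, at 3274, 3446 and 3502 FPKM in ccrfer, against 4468, 4094 and 4233 in WT (-0.32, SE 0.106, adjusted p = 0.0251), a call lost without WT 1, WT 2, WT 3 or ccrfer 1 (adjusted p = 0.0757, 0.0504, 0.0507 and 0.0816; range over the alternatives 0.00967 to 0.117). The count of 7 higher was 4 without WT 1, 12 without WT 3 and 16 without ccrfer 2.

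**Figure D5:**
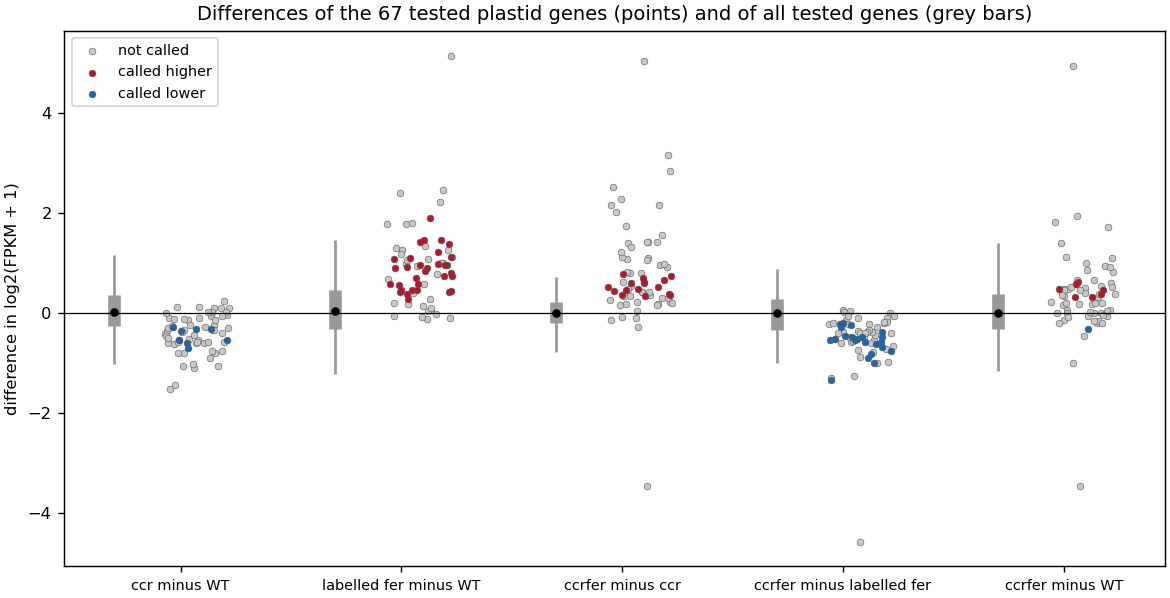
Differences in log2(FPKM + 1) of the 67 tested plastid genes (points) in 5 comparisons, red where called higher, blue where called lower and grey where not called; beside them the black dot, thick bar and thin bar give the median, the interquartile range and the 5th to 95th percentiles of all 18428 tested genes. Plastid genes lie above 0 in labelled fer minus WT (median 0.90) and ccrfer minus ccr (0.59) and below it in ccr minus WT (-0.37) and ccrfer minus labelled fer (-0.47), and the points beyond 3 in size were not called.

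The interaction sets the ccrfer minus labelled fer difference against the ccr minus WT difference. It was called below 0 for 7 of the 67 genes (10.4%) and above it for 0. Over all tested genes 22.4% were called below and 17.1% above. At an unadjusted p under 0.05, the interaction was below 0 for 9 plastid genes and above it for 0. Its values over the plastid genes were 31 positive and 36 negative. ATCG00790 had -0.83 (SE 0.226, adjusted p = 0.0119). Another 5 were ATCG00360, ATCG00170, ATCG00180, ATCG00190 and ATCG00820, at -0.48 to -0.62. ATCG00360 was at 1216, 1009.9 and 1406 FPKM in ccrfer, 1547, 1774 and 1881 in labelled fer, 859, 931 and 1041 in ccr, and 763, 880.3 and 1013 in WT. The count was 2 without WT 1, 4 without WT 2, 3 without ccr 2, 3 without ccr 3, 3 without labelled fer 2, 2 without labelled fer 3 and 12 without ccrfer 3.

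The genes that varied least between replicates were looked at apart. In each of the 4 genotypes, 21 of the 67 genes had a highest library under 1.5 times the lowest, a selection made after the values were seen and not tested. A small spread makes a call easier, so the counts are read beside the shares over all tested genes. Of these 21, 15 were called higher in labelled fer against WT (28.4% of all tested genes were), 15 lower in ccrfer against labelled fer (21.3%), 9 higher in ccrfer against ccr (10.4%), 6 lower in ccr against WT (19.8%), and 6 higher and 1 lower in ccrfer against WT (24.9% and 22.8%). Their median differences were 0.45 in labelled fer against WT, -0.38 in ccrfer against labelled fer, 0.33 in ccrfer against ccr, -0.29 in ccr against WT, with 0.06 in ccrfer against WT, each nearer to 0 than the median of the 67 genes. ATCG00480 was at 1395, 1423 and 1417 FPKM in ccrfer, 1643, 1628 and 1592 in labelled fer, 1258, 1267 and 1249 in ccr, and 1597, 1585 and 1523 in WT. ATCG00120 was at 1421, 1350.4 and 1532 FPKM in ccrfer, 1620.3, 1746 and 1694 in labelled fer, 1229.9, 1246 and 1236 in ccr, and 1206, 1292 and 1309 in WT. For both, replicates lay close together, with ccr below all other libraries for ATCG00480 and labelled fer above all others for ATCG00120. ATCG00170, also one of the 21, had a larger difference, at 102, 146 and 129 FPKM in labelled fer, against 47.4, 60.1 and 65.6 in WT. ATCG00680 was at 5063, 5076 and 5454 FPKM in ccrfer, 5113, 5149 and 4965 in labelled fer, 4275, 4417 and 4371 in ccr, and 5344, 5431 and 5545 in WT, so that ccr lay below all other libraries. ATCG00500 was at 453, 409 and 559 FPKM in ccrfer, 445, 585 and 537 in labelled fer, 338, 347 and 350.1 in ccr, and 355, 366 and 416 in WT. ATCG00720 was at 5612, 4445 and 4413 FPKM in ccrfer, 4882, 6008 and 5593 in labelled fer, 3772, 4098 and 3934 in ccr, and 4325, 4825 and 5877 in WT, with ccr below all other libraries.

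Other genes of the fixed panel varied more between replicates. ATCG01010 was at 43.2, 27.6 and 89.0 FPKM in ccrfer, 44.1, 148 and 133 in labelled fer, 18.3, 20.5 and 20.8 in ccr, and 25.7, 30.5 and 52.0 in WT. ATCG01130, the lowest of the tested genes, was at 19.4, 10.3 and 45.3 FPKM in ccrfer, 15.5, 74.2 and 66.0 in labelled fer, 6.53, 8.17 and 7.07 in ccr, and 7.16, 8.78 and 19.0 in WT. In both, ccr was the lowest genotype by mean and labelled fer the highest. ATCG00740 was at 333, 174 and 465 FPKM in ccrfer, 254, 589 and 623 in labelled fer, 121, 153 and 140.4 in ccr, and 116, 151 and 257 in WT, and ATCG00040 at 319, 197 and 531 in ccrfer, 233, 704 and 621 in labelled fer, 143, 155 and 160.4 in ccr, and 161, 208 and 374 in WT. For all 4 labelled fer 1 lay within the range of WT, so the groups overlapped. In labelled fer against WT, ATCG01130 (1.90, SE 0.594, adjusted p = 0.0183), ATCG00740 (1.45, SE 0.404, adjusted p = 0.00995) and ATCG01010 (1.44, SE 0.468, adjusted p = 0.0219) were called higher despite the overlap, and ATCG00040 was not (1.00, adjusted p = 0.0757).

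Nuclear genes that work with the plastid ones are set beside them from 3 lists. Their counts are read against the shares of all tested genes given above for each comparison. Of 24 nuclear subunits of the photosynthetic complexes, 13 rose and 1 fell in labelled fer against WT (median difference 0.38), 1 rose and 15 fell in ccr against WT (-0.50), 3 rose and 2 fell in ccrfer against ccr (0.02), 0 rose and 22 fell in ccrfer against labelled fer (-0.83), and 2 rose and 15 fell in ccrfer against WT (-0.36). RBCS3B, a Rubisco small subunit, was at 69.8 ± 8.22 FPKM in ccrfer, 273 ± 10.2 in labelled fer, 87.7 ± 4.57 in ccr and 75.9 ± 7.24 in WT (SD, n = 3 each). It rose in labelled fer against WT (1.84, SE 0.0899, adjusted p = 7.56e-09), with reads that near-identical copies may share. NdhL, a nuclear subunit of the complex that holds ndhJ and ndhK, fell in ccr, at 4.17 ± 1.19 FPKM against 15.6 ± 3.72 in WT (-1.68, SE 0.317, adjusted p = 0.00106). CAB2, a light-harvesting protein with near-identical copies, went the other way in ccr, at 189 ± 10.4 FPKM against 113 ± 6.05 in WT (0.73, SE 0.0804, adjusted p = 1.61e-05). PSBO2 of photosystem II was lower in ccrfer, at 104.7 ± 19.0 FPKM, than in ccr, at 147 ± 9.93 (-0.50, adjusted p = 0.00653), and ATPD of the ATP synthase was higher, at 34.3 ± 2.35 FPKM in ccrfer and 27.7 ± 1.32 in ccr (0.30, adjusted p = 0.0148). The ATPD call was lost without ccr 3 (adjusted p = 0.0697, the highest over the alternatives) or ccrfer 1 (0.0527) and with the AT2G01021 covariate (0.0634). The PSBO2 call was also lost with that covariate (-0.27, adjusted p = 0.112, the highest over the alternatives). PETC, the Rieske protein of the cytochrome b6f complex, was the 1 subunit lower in labelled fer. It was at 144 ± 17.7 FPKM there against 180.0 ± 6.53 in WT (-0.32, adjusted p = 0.0456). That call was lost without WT 1, WT 2, WT 3, labelled fer 2 or labelled fer 3 (adjusted p = 0.069 to 0.156). It was also lost without the filter on low values (0.0654) and with the AT2G01021 covariate (0.588), and the lowest adjusted p over the alternatives was 0.0204. NdhN, another nuclear subunit of the NADH dehydrogenase-like complex, was listed at 0 in 1 ccrfer library and was at 5.92 and 8.41 FPKM in the others, against 14.4, 14.4 and 14.9 in WT (-1.95, SE 0.607, adjusted p = 0.0192). Without that library, ccrfer 3, the NdhN difference was -0.95 (adjusted p = 0.000203). The NdhN call was lost without WT 1 (adjusted p = 0.0502) and with a pseudocount of 0.1 (-3.09, adjusted p = 0.0607). It was also lost with the AT2G01021 covariate (-0.99, adjusted p = 0.115, the highest over the alternatives). The interaction was called below 0 for 9 of the 24 (37.5%) and above it for 0, where 22.4% of all tested genes were called below.

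Of 19 nuclear genes of plastid transcription, 11 (57.9%, where 19.8% of all tested genes did) fell in ccr against WT, while 8 (42.1%) fell in ccrfer against labelled fer and likewise against WT, where 21.3% and 22.8% of all tested genes did. In labelled fer against WT 5 (26.3%) rose and 2 (10.5%) fell, at or under the 28.4% and 23.2% of all tested genes, and 0 were called in ccrfer against ccr (1 higher and 0 lower at an unadjusted p under 0.05). SIGE, a sigma factor, was at 39.6 ± 4.76 FPKM in ccrfer, 97.2 ± 4.44 in labelled fer, 44.6 ± 1.34 in ccr and 46.9 ± 2.81 in WT. It rose in labelled fer against WT (1.04, SE 0.0829, adjusted p = 6.14e-07) and fell in ccrfer against labelled fer (-1.28, adjusted p = 3.07e-07). SIG4, another sigma factor, was lower in ccr, at 2.96 ± 0.374 FPKM, than in WT, at 6.33 ± 0.432 (-0.89, SE 0.218, adjusted p = 0.00571). TRX z, a thioredoxin bound to the plastid polymerase, was lower in ccrfer, at 6.12 ± 0.797 FPKM, than in WT, at 9.93 ± 1.39 (-0.62, adjusted p = 0.0117; 0.055 without WT 3, the highest over the alternatives). Of 11 nuclear genes of plastid RNA processing and decay, 10 fell in ccr against WT (90.9%), 3 rose and 4 fell in labelled fer against WT (27.3% and 36.4%), 4 fell in ccrfer against labelled fer (36.4%), 6 fell in ccrfer against WT (54.5%), and 0 were called in ccrfer against ccr (7 higher and 0 lower at an unadjusted p under 0.05). RNEE/G, an RNase E-type ribonuclease of plastids, was at 5.33 ± 0.581 FPKM in ccrfer, 7.26 ± 1.31 in labelled fer, 3.96 ± 0.102 in ccr and 10.5 ± 0.454 in WT, and fell in ccr against WT (-1.21, SE 0.127, adjusted p = 1.03e-05). HCF173, which supports translation of a photosystem II messenger, rose in labelled fer, at 64.0 ± 1.01 FPKM against 43.7 ± 3.50 in WT (0.54, adjusted p = 0.000205). AT5G63420 (emb2746), a ribonuclease of the RNase J type, was lower there, at 5.27 ± 0.381 FPKM against 8.51 ± 0.428 in WT (-0.60, adjusted p = 0.00025). CRB, an RNA-binding protein of chloroplasts, was lower in ccrfer, at 27.0 ± 1.68 FPKM, than in labelled fer, at 47.5 ± 1.3 (-0.79, adjusted p = 4.6e-06).

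The mitochondrial genome, the other organelle genome read by the same kit, gave 91 tested rows of 122. Of these 21 (23.1%) rose and 3 fell in labelled fer against WT, where 28.4% of all tested genes rose. In ccr against WT 7 (7.69%) rose and 1 fell, where 24% of all tested genes rose. In ccrfer against ccr 19 (20.9%) rose and 3 fell, where 10.4% rose. In ccrfer against labelled fer 4 rose and 8 (8.79%) fell, where 21.3% fell, and in ccrfer against WT 25 (27.5%) rose and 5 fell, where 24.9% rose. The median difference of the mitochondrial rows was 0.12 in labelled fer against WT, where that of the plastid genes was 0.90, and 0.19 in ccrfer against ccr, where that of the plastid genes was 0.59. Their difference from the plastid genes was not tested.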

How the data were processed

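The authors deposited FPKM values of 27655 genes in 12 libraries. The submitters' processing notes name TopHat2 2.1.1, Bowtie2 2.3.2.0, Cufflinks 2.2.1 and Cuffdiff (no version) and the build TAIR10. Per the labels' protocols, the kit was a stranded one for mRNA and reads were pairs of 75 bp. A deposited report gave the counts of reads and the mapped fraction per library. No count per gene was at hand, which leaves each gene's counting error unknown. No column of the table was left out.

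Values were used as log2(FPKM + 1), which understates differences of low genes. The 18428 genes that reached FPKM 1 in 3 or more libraries were fitted with limma 3.58.1 in R 4.3.3, with 1 mean per genotype, no block and a trend in the prior variance. Tests were two-sided and adjusted by Benjamini and Hochberg over all tested genes; an adjusted p under 0.05 is a call. The fit was tested on simulated data. Alternatives were a pseudocount of 0.1, no filter, median-of-ratios scaling, a replicate block and each library left out; the fit with AT2G01021 as a covariate was chosen after seeing the data. The biological replicates were not said to be paired.

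Named were the genes set apart, a panel of 21 plastid genes, the 3 most abundant, and per comparison the 5 called genes each way with the largest difference, libraries that did not overlap (not asked of the interaction) and a mean of 5 FPKM or more, with up to 2 genes per nuclear list. The genes with a name in the reference, the variable and the steady genes were chosen after their values were seen. The members and lists were chosen with earlier results of these data known. Plastid names came from notes in the RefSeq TAIR10.1 annotation and BLAST 2.17.0 searches of those nuclear sequences; the planned groups by complex were not used, since the reference pairs few plastid identifiers with a name. Single values of 1 plastid gene are not reported here. Nuclear symbols came from the same assembly, and no coordinates are given because the builds differ.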

Additional observations from a re-analysis of the deposited data

Results flagged for a closer look

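For 6 plastid genes described here the ccrfer minus labelled fer difference and the ccr minus WT difference were unequal by the interaction term of the limma fit (log2(FPKM + 1) scale, adjusted over all tested genes). The values were -0.83 for ATCG00790 (SE 0.226, adjusted p = 0.0119), -0.62 for ATCG00360 (SE 0.198, adjusted p = 0.0257), -0.59 for ATCG00170 (SE 0.215, adjusted p = 0.0459), -0.50 for ATCG00180 (SE 0.156, adjusted p = 0.0234), -0.48 for ATCG00190 (SE 0.168, adjusted p = 0.0391) and -0.48 for ATCG00820 (SE 0.146, adjusted p = 0.0214). Because the labelled fer libraries held FER as WT did, the term compares these libraries and not a known FER background. The calls of ATCG00360, ATCG00170 and ATCG00180 were lost in fits that left out single libraries (adjusted p up to 0.0667, 0.11 and 0.0608). That of ATCG00790 held in each alternative run (adjusted p up to 0.0325). Those of ATCG00190 and ATCG00820 were not followed singly through the alternatives. Only 2 plastid genes in all were called below 0 without WT 1, and 2 without labelled fer 3.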

How the results depend on the processing

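No call of a plastid gene chosen by the naming rule reversed direction in any alternative run. The median difference over the 67 genes in ccrfer against WT, however, was 0.36 and became -0.06 with the covariate named next. With AT2G01021 as a covariate, chosen after seeing the data, counts of called plastid genes moved to 19 higher in labelled fer against WT, 3 higher in ccrfer against ccr, 4 higher and 2 lower in ccrfer against WT, and 1 above and 12 below in the interaction; the cause was not tested. Without the filter, which adds genes to the adjustment, 9 were higher in ccrfer against ccr and 0 lower in ccrfer against WT. Median-of-ratios scaling, with factors of 0.980 to 1.02, gave 3 lower in ccrfer against WT. With 1 library left out, counts ran from 4 to 9 lower in ccr against WT, 25 to 44 higher in labelled fer against WT, 5 to 37 higher in ccrfer against ccr, 11 to 29 lower in ccrfer against labelled fer, 4 to 16 higher and 0 to 2 lower in ccrfer against WT, and 0 to 1 above and 2 to 12 below in the interaction. In the other direction of the first 4 comparisons the counts ran from 0 to 0.

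Replicate numbers gave no sign of a pairing: over 18 pairs with the same number, deviations from genotype means correlated between -0.129 and 0.191, with a median of 0.0165. With the replicate block, 11 plastid genes were lower in ccr against WT, 39 higher in labelled fer against WT, 23 higher in ccrfer against ccr, 23 lower in ccrfer against labelled fer, 9 higher and 1 lower in ccrfer against WT, and 8 below in the interaction. Of 31 calls of plastid genes chosen by the naming rule, the block lost 0, a pseudocount of 0.1 lost 2, median-of-ratios scaling 2, no filter 7 and the covariate 8, and leaving out a library lost 60 of 216.

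Limits are the FPKM unit, which gives no counting error, the 3 libraries per genotype, the zeros that fill whole genotypes, the mRNA kit, and the labels of the fer libraries.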
